A study of Mus musculus with 4 samples.

Results

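The genes described here are those of the mitochondrial respiratory chain and ATP synthase that are encoded in the nucleus, chosen by symbol: Nduf genes, Uqcr genes, Sdha to Sdhd, Cox genes numbered from 4 to 8, and Atp5 genes. Of 23283 gene symbols with a value in every library, 90 matched, and 85 had a mean of at least 1 FPKM over the 4 libraries and were kept. FPKM, the unit of the deposited values, scales the fragments of a gene to its transcript length and to the library's depth. The same minimum left 10973 symbols for comparison over the whole genome. The symbol rule also takes in Cox4nb, listed in GENCODE as Emc8, a gene of no respiratory subunit, and Atp5sl, listed as Dmac2, a complex I assembly gene. Ndufa4, named after complex I, encodes a subunit of complex IV and was counted there.

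Th2 cells, the helper T cells that secrete IL-4, IL-5 and IL-13, were grown from splenic CD4 T cells of C57BL/6 mice that were Menin knockout (KO) or wild type (WT). The question the libraries address is what Menin, a component of Trithorax group chromatin complexes, does in Th2 cells. The KO 3-week and WT 3-week libraries come from a culture named as 3 weeks, whose stated steps were 5 days in Th2 conditions (IL-2, 15 ng/ml; IL-4, 10 ng/ml), 2 days of rest with no cytokine added, and 5 days of restimulation through the T cell receptor by immobilized antibody, in the presence of IL-2 and of IL-4-blocking antibody. The KO 5-day and WT 5-day libraries come from cells taken at the end of the first 5 days. The stated steps fall short of 3 weeks, and what happened in the missing time is unstated. The sources used here do not give the deleting allele or Cre driver, the number of mice behind a library or their age.

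Each of the 4 groups held 1 library, so no difference has a replicate check, no test was possible and no p-value is given. Inferred depths lay between 20.7 and 23.55 M reads, and counting intervals given below cover counting error only. Men1, the gene of Menin, had 5.88 FPKM in KO 3-week against 25.4 FPKM in WT 3-week. It had 10.3 FPKM in KO 5-day against 32.8 FPKM in WT 5-day, lower in both libraries labelled KO. The 7 T cell and Th2 markers (Cd4, Cd3e, Cd3d, Gata3, Il4, Il5 and Il13) were above 0 in every library and summed to 944 FPKM in KO 3-week, 876 FPKM in WT 3-week, 653 FPKM in KO 5-day and 613 FPKM in WT 5-day, mostly from Cd4, Cd3e and Cd3d. These 3 genes were higher in KO 3-week than in WT 3-week, with Cd4 at 307 FPKM in KO 3-week against 212 FPKM in WT 3-week, whereas the 4 Th2 genes were lower there, with log2 ratios from -2.40 (Il13) to -1.02 (Gata3). At 5 days Gata3 had a log2 ratio of -0.06, and Il4, Il5 and Il13 had ratios from 0.53 to 0.84. NK cell markers (Klrb1c and Ncr1) summed to 2.07 FPKM in KO 3-week, 0.0174 FPKM in WT 3-week, 1.75 FPKM in KO 5-day and 0.119 FPKM in WT 5-day, higher in both KO libraries. The 3 myeloid markers summed to 4.75 FPKM in KO 3-week, all of it from Itgam with Lyz2 and Csf1r listed at 0, and to 0.127 FPKM in WT 3-week, 0.558 FPKM in KO 5-day and 0.328 FPKM in WT 5-day. CD8 T cell, B cell and erythroid markers summed to between 0 and 12.0 FPKM in any library, the highest being erythroid RNA in WT 5-day. Those of CD8 T cells were higher in KO at both times. They summed to 3.77 FPKM in KO 3-week, 2.04 FPKM in WT 3-week, 5.70 FPKM in KO 5-day and 4.38 FPKM in WT 5-day. B cell and erythroid sums differed in direction between the times. The part of these Th2 and other cell markers in the results below was not tested. In bulk RNA, fewer cells of a type and less RNA per cell cannot be told apart.

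The respiratory chain sits in the inner mitochondrial membrane. Complex I (NADH dehydrogenase) and complex II (succinate dehydrogenase) pass electrons to ubiquinone, complex III (the cytochrome bc1 complex) passes them to cytochrome c, and complex IV (cytochrome c oxidase) to oxygen. Complexes I, III and IV pump protons, and complex V (ATP synthase) uses the proton gradient to make ATP. T cells enlarge their mitochondria and build respiratory complexes when they are activated, and memory T cells rely on respiration between encounters with antigen. Some subunits are encoded in mitochondrial DNA (0 symbols matched) and were not analysed here.

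NRF1 and GABP, an ETS family factor, are transcription factors known for binding promoters of respiratory chain genes. RefSeq promoters (GRCm38.p6, 250 bases before to 50 after a start) were found for 72 of the 85 genes and searched on both strands for an NRF1 motif (GCGCA, then any base, then GCGC) and an ETS motif (CCGGAAG). NRF1 letters were in 18 of the 72 (25%), against 5.19% of 27025 genes with a promoter and 12.4% of 7774 compared genes with one. ETS letters were in 17 (23.6%), against 9.93% and 22.0%. Both were in 4 genes, with 0 overlapping matches. The median log2 ratio of KO to WT at 3 weeks was -0.49 in the 18 genes with NRF1 letters and -0.39 in the 54 without, and -0.37 in the 17 genes with ETS letters and -0.42 in the 55 without. These letters are a description of the windows and not evidence of binding. The promoters printed are shown because their genes stood among the lowest in KO 3-week cells: Ndufaf4 and Ndufa5, the lowest of the 14 genes with NRF1 letters before the start, and Ndufa4, which has neither motif in its window. Each gives the 250 bases before the RefSeq start, 5′ to 3′ on the gene's strand, with NRF1 letters in capitals. They lie at chr4:24897833-24898082 (plus strand, NRF1 letters from position -113), chr6:24527691-24527940 (minus strand, from position -26) and chr6:11907451-11907700 (minus strand). The table holds another start for Ndufa5, from which the same letters lie at position -190, and the printed window belongs to the start nearer to them. In GENCODE the genes of Ndufa4 and Ndufa5 reach further upstream, to positions 11907497 and 24528013. Their printed windows therefore lie partly (Ndufa4) or wholly (Ndufa5) within those gene bounds.
Ndufaf4: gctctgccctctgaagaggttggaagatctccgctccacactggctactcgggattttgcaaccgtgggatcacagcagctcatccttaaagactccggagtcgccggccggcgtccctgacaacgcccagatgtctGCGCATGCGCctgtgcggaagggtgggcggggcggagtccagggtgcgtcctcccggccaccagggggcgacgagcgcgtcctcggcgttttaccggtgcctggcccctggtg
Ndufa5: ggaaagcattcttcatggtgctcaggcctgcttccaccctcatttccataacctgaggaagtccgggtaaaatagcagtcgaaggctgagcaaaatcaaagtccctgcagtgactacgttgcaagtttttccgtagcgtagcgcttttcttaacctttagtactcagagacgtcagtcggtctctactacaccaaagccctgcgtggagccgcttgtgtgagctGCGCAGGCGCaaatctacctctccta
Ndufa4: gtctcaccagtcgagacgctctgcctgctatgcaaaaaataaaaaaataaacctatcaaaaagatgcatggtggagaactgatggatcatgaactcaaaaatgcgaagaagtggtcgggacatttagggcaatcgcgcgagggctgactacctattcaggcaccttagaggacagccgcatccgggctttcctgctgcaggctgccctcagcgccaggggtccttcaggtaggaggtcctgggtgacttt

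At 3 weeks most respiratory chain genes stood lower in KO than in WT cells, by a modest amount. The median log2 ratio was below 0 in each of the 5 complexes. In complex II (-0.15), however, it was no lower than over all symbols with a mean of at least 20 FPKM (-0.19). Summed over the 85 genes, FPKM was 8830.0 in KO 3-week and 11480.2 in WT 3-week, 76.9% of WT, and these genes took 1.85% of all FPKM in KO 3-week and 2.46% in WT 3-week. On the scale log2((KO + 1)/(WT + 1)), used for every log2 ratio here, 75 of 85 (88.2%) lay below 0, against 55.8% of all compared symbols and 62.6% of those with a mean of at least 20 FPKM, a level more like that of these genes. The median was -0.38, against -0.08 over all compared symbols and -0.19 over those with a mean of at least 20 FPKM. At least 1.5-fold lower were 23 of 85 (27.1%), against 20.8% of all symbols and 26% of the more abundant ones. At least 1.5-fold higher were 3 of 85 (3.53%), against 15.5%. At least 2-fold lower were 4 (4.71%, against 8.19%), namely Cox6b2, Ndufa4, Ndufa12 and Ndufaf4, and 0 were at least 2-fold higher (against 7.97%). The share below 0 was thus above that of all symbols and of the abundant ones, while the share past 1.5-fold was near that of the abundant ones and the share past 2-fold was below that of all symbols. By counting error alone, the interval of the KO to WT ratio lay below equality in 67 genes (78.8%), against 45.1% of all compared symbols with a transcript length and 55.7% of the more abundant ones. It lay above equality in 6 (7.06%), among them Atp5sl, Cox6a2, Cox7a1, Cox7a2l and Ndufa6, against 33.4% and 30.5%, and held it in 12.

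**Figure D1:**
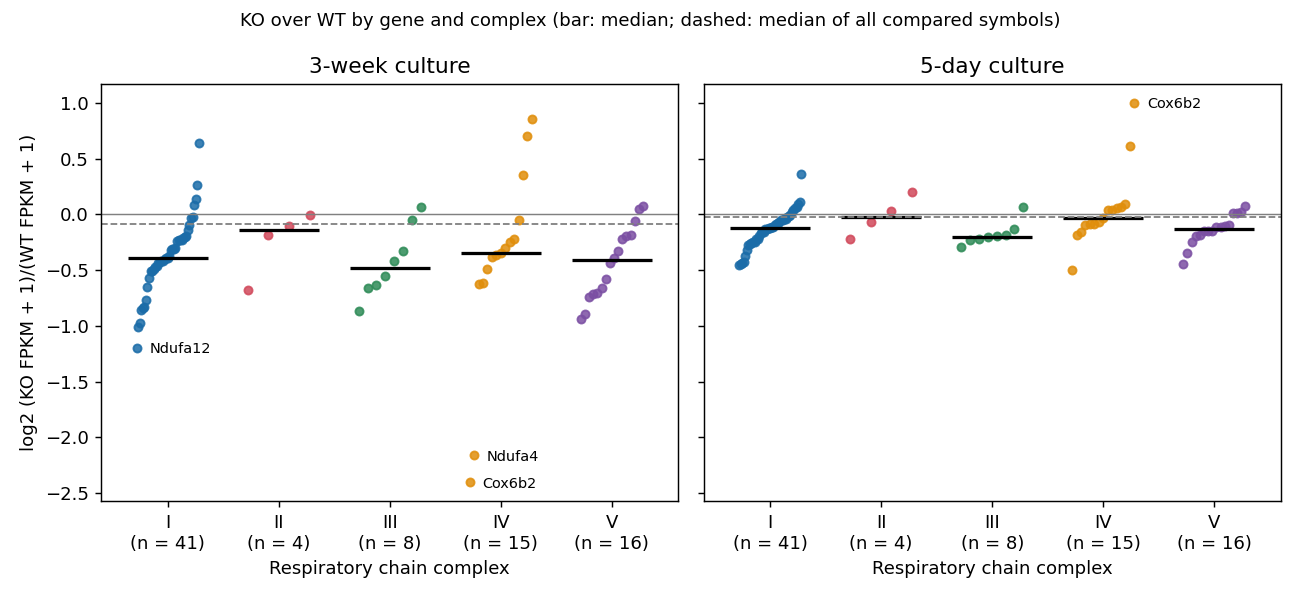
Log2((KO + 1)/(WT + 1)) of FPKM for each kept gene of complexes I to V (x axis) in the 3-week (left) and 5-day (right) cultures, 1 library per group; bars are medians of a complex and the dashed line is the median of all compared symbols. At 3 weeks the medians lie between -0.48 (complex III) and -0.15 (complex II), and at 5 days between -0.20 (complex III) and -0.02 (complex II); Cox4nb is not drawn.

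After 5 days the same direction was seen at a smaller size. The summed FPKM was 10148 in KO 5-day and 10905 in WT 5-day, 93.1% of WT. Of 85 genes 64 (75.3%) lay below 0, against 53.6% of all compared symbols and 59.1% of the more abundant ones, with a median of -0.12 against -0.02 and -0.06. None was at least 1.5-fold lower (0 of 85, against 2.71%), and 2 were at least 1.5-fold higher (2.35%, against 6.98%), Cox6b2 and Cox7a1. Cox6b2 was the 1 gene at least 2-fold higher (against 2.77%), and 0 were at least 2-fold lower (against 0.82%). Counting intervals lay below equality in 43 genes (50.6%), against 30.8% of all compared symbols with a transcript length and 43.3% of the more abundant ones. They lay above it in 5 (5.88%), against 26% and 27.1%, and held it in 37.

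Complex I, the NADH dehydrogenase, summed to 2562 FPKM in KO 3-week and 3185 FPKM in WT 3-week (80.4% of WT), and to 2840 FPKM in KO 5-day and 3027 FPKM in WT 5-day (93.8%). Its 41 genes had a median log2 ratio of -0.39 at 3 weeks and -0.12 at 5 days. The 6 nuclear core subunits described here, part of the set that carries electrons from NADH to ubiquinone, lay below 0 at 3 weeks, between -0.51 and -0.21. Ndufs8, an iron-sulfur subunit, was the lowest, at 38.4 FPKM in KO 3-week, 54.9 FPKM in WT 3-week, 48.7 FPKM in KO 5-day and 56.9 FPKM in WT 5-day (69.9% of WT at 3 weeks, counting interval 62.8% to 77.8%). Ndufv1, which holds the flavin where NADH is oxidised, stood at 32.2 FPKM in KO 3-week, 43.9 FPKM in WT 3-week, 39.7 FPKM in KO 5-day and 44.8 FPKM in WT 5-day. In both, KO 3-week was the lowest library. Ndufv2, its partner in the NADH module, stood at 35.1 FPKM in KO 3-week, 47.3 FPKM in WT 3-week, 40.3 FPKM in KO 5-day and 44.0 FPKM in WT 5-day (log2 ratios -0.42 and -0.12). Ndufs1, the large iron-sulfur subunit, stood at 26.4 FPKM in KO 3-week, 30.8 FPKM in WT 3-week, 24.6 FPKM in KO 5-day and 29.3 FPKM in WT 5-day (-0.21 and -0.24), about as low relative to WT at 5 days as at 3 weeks. Ndufs3, of the arm that leads electrons to ubiquinone, stood at 30.3 FPKM in KO 3-week, 39.6 FPKM in WT 3-week, 33.2 FPKM in KO 5-day and 37.2 FPKM in WT 5-day (-0.37 and -0.16). Ndufs7, which passes electrons to ubiquinone, stood at 46.2 FPKM in KO 3-week, 57.4 FPKM in WT 3-week, 54.0 FPKM in KO 5-day and 56.7 FPKM in WT 5-day (-0.31 and -0.07).

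The accessory subunits of complex I surround the core and are needed for its assembly and stability. Of 29, 27 lay below 0 at 3 weeks and 24 at 5 days, with medians of -0.32 and -0.10. Below 0 were 55.8% of all compared symbols at 3 weeks and 53.6% at 5 days (62.6% and 59.1% of the more abundant ones). Ndufa12, an accessory subunit of the NADH arm, was the lowest, at 42.3 FPKM in KO 3-week, 98.2 FPKM in WT 3-week, 78.0 FPKM in KO 5-day and 93.5 FPKM in WT 5-day. KO 3-week stood apart from the other 3 libraries, at 43.1% of WT (counting interval 39.1% to 47.4%), against 83.4% at 5 days. A near-identical copy, Gm15920, could share its reads. Ndufc2, of the membrane arm, stood at 37.8 FPKM in KO 3-week, 75.5 FPKM in WT 3-week, 55.1 FPKM in KO 5-day and 68.8 FPKM in WT 5-day. Ndufa5, whose promoter is printed above, stood at 40.9 FPKM in KO 3-week, 74.9 FPKM in WT 3-week, 54.7 FPKM in KO 5-day and 71.3 FPKM in WT 5-day. In both, KO 3-week was the lowest library and KO 5-day the next. Ndufb6, of the membrane arm, had log2 ratios of -0.84 at 3 weeks and -0.22 at 5 days, and Ndufab1, the mitochondrial acyl carrier protein, of -0.84 and -0.46 (15.8 FPKM in KO 3-week, 28.9 FPKM in WT 3-week, 20.2 FPKM in KO 5-day and 28.1 FPKM in WT 5-day). Ndufc1 stood at 22.6 FPKM in KO 3-week, 34.1 FPKM in WT 3-week, 26.3 FPKM in KO 5-day and 36.2 FPKM in WT 5-day (-0.57 and -0.44), but its counting interval at 3 weeks, 46.7% to 93.5% of WT, was wide. The 2 accessory subunits above 0 at 3 weeks were Ndufa1 and Ndufa6. Ndufa6 stood at 126 FPKM in KO 3-week, 105 FPKM in WT 3-week, 129 FPKM in KO 5-day and 119 FPKM in WT 5-day.

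Assembly factors of complex I among the chosen symbols help to build the enzyme but do not stay in it. Ndufaf4 stood at 1.91 FPKM in KO 3-week, 4.88 FPKM in WT 3-week, 1.56 FPKM in KO 5-day and 2.45 FPKM in WT 5-day (39.1% of WT at 3 weeks, counting interval 32.1% to 47.6%; 63.6% at 5 days). WT 3-week was the high library, since KO 3-week and KO 5-day were close to each other. Ndufaf2 had log2 ratios of -0.77 at 3 weeks and -0.26 at 5 days, and Ndufaf3 of -0.39 and -0.25. Ndufaf1 stood at 7.21 FPKM in KO 3-week, 9.98 FPKM in WT 3-week, 7.35 FPKM in KO 5-day and 10.3 FPKM in WT 5-day, so its ratio was about the same at both times (-0.42 and -0.44). Atp5sl went the other way, at 19.2 FPKM in KO 3-week, 12.0 FPKM in WT 3-week, 17.5 FPKM in KO 5-day and 13.4 FPKM in WT 5-day. Both KO libraries were above both WT libraries, with 160% of WT at 3 weeks (counting interval 143% to 180%) and 131% at 5 days (116% to 148%).

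Complex II, the succinate dehydrogenase shared with the TCA cycle, has only 4 subunits and stood nearest to WT. It summed to 285 FPKM in KO 3-week and 339 FPKM in WT 3-week (84.2% of WT), and to 311 FPKM in KO 5-day and 317 FPKM in WT 5-day (98.0%). Its median log2 ratio was -0.15 at 3 weeks and -0.02 at 5 days. Over all symbols with a mean of at least 20 FPKM the medians were -0.19 and -0.06, so complex II was not lower than these. Sdha, the catalytic flavoprotein, stood at 55.2 FPKM in KO 3-week, 88.8 FPKM in WT 3-week, 67.1 FPKM in KO 5-day and 78.3 FPKM in WT 5-day, lower in KO at both times (log2 ratios -0.68 and -0.22). Sdhb, the iron-sulfur subunit, stood at 117 FPKM in KO 3-week, 133 FPKM in WT 3-week, 115 FPKM in KO 5-day and 121 FPKM in WT 5-day (-0.18 and -0.07). The membrane anchors were closer to WT at 3 weeks. Sdhc stood at 49.1 FPKM in KO 3-week, 53.0 FPKM in WT 3-week, 52.3 FPKM in KO 5-day and 51.3 FPKM in WT 5-day (-0.11 and 0.03). Sdhd stood at 63.7 FPKM in KO 3-week, 63.9 FPKM in WT 3-week, 76.8 FPKM in KO 5-day and 66.9 FPKM in WT 5-day, which is 99.7% of WT at 3 weeks and 115% at 5 days, and KO 5-day was its highest library. The subunits of the enzyme thus did not shift by the same amount. With upper-quartile scaling both anchors lay above 0 at 3 weeks (Sdhc 0.00 and Sdhd 0.11).

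Complex III summed to 900.5 FPKM in KO 3-week and 1141 FPKM in WT 3-week (78.9% of WT), and to 987 FPKM in KO 5-day and 1092 FPKM in WT 5-day (90.4%). Its core members lay close together. Uqcrc2, a core protein, stood at 57.1 FPKM in KO 3-week, 89.0 FPKM in WT 3-week, 68.8 FPKM in KO 5-day and 75.7 FPKM in WT 5-day (log2 ratios -0.63 and -0.14). Uqcrc1, the other core protein, stood at 73.9 FPKM in KO 3-week, 109 FPKM in WT 3-week, 92.2 FPKM in KO 5-day and 108 FPKM in WT 5-day (-0.55 and -0.22). Uqcrfs1, the Rieske iron-sulfur protein, stood at 42.6 FPKM in KO 3-week, 57.3 FPKM in WT 3-week, 52.4 FPKM in KO 5-day and 60.5 FPKM in WT 5-day (-0.42 and -0.20), and in each of the core genes KO 3-week was the lowest library. The small subunits spread more widely. Uqcr10 stood at 118 FPKM in KO 3-week, 216 FPKM in WT 3-week, 173 FPKM in KO 5-day and 197 FPKM in WT 5-day (54.6% of WT at 3 weeks, counting interval 49.8% to 59.8%), whereas Uqcrh, the hinge protein, was slightly higher in KO at both times, at 280.2 FPKM in KO 3-week, 267 FPKM in WT 3-week, 249.8 FPKM in KO 5-day and 238 FPKM in WT 5-day. Counting intervals of Uqcrh held equality at both times. Cyc1, the cytochrome c1 of complex III, lies outside the symbol rule and is given with cytochrome c below.

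Complex IV summed to 2426 FPKM in KO 3-week and 3137 FPKM in WT 3-week (77.3% of WT), and to 2878 FPKM in KO 5-day and 2986 FPKM in WT 5-day (96.4%). Its 11 ubiquitous subunits all lay below 0 at 3 weeks (11 of 11, median -0.36, from -2.16 to -0.05), and 7 of 11 did at 5 days (median -0.07). Of all compared symbols 55.8% lay below 0 at 3 weeks and 53.6% at 5 days. For symbols with a mean of at least 20 FPKM the shares were 62.6% and 59.1%, so the 5-day count was near the background. With median-of-ratios or upper-quartile scaling Cox8a lay above 0 at 3 weeks (0.01 and 0.06), leaving the other 10 below. Cox4i1, a subunit that regulates the enzyme, stood at 414 FPKM in KO 3-week, 493 FPKM in WT 3-week, 456 FPKM in KO 5-day and 509.7 FPKM in WT 5-day (log2 ratios -0.25 and -0.16). Cox7b stood at 67.6 FPKM in KO 3-week, 87.1 FPKM in WT 3-week, 67.8 FPKM in KO 5-day and 77.4 FPKM in WT 5-day (-0.36 and -0.19). Cox8a, the subunit nearest to WT, stood at 372 FPKM in KO 3-week, 386 FPKM in WT 3-week, 403 FPKM in KO 5-day and 412 FPKM in WT 5-day, with counting intervals that held equality at both times. Cox6a1 stood at 338 FPKM in KO 3-week, 523 FPKM in WT 3-week, 469 FPKM in KO 5-day and 498 FPKM in WT 5-day. Cox5a stood at 148 FPKM in KO 3-week, 227 FPKM in WT 3-week, 148 FPKM in KO 5-day and 157 FPKM in WT 5-day, so that WT 3-week was the 1 library that stood apart. Cox5b stood at 166 FPKM in KO 3-week, 216 FPKM in WT 3-week, 217 FPKM in KO 5-day and 203 FPKM in WT 5-day, with KO 3-week the low library. Its KO cells were thus below WT at 3 weeks and slightly above at 5 days (log2 ratios -0.38 and 0.09).

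Ndufa4, a subunit at the surface of complex IV, had the lowest ratio of any ubiquitous respiratory chain gene. It stood at 36.7 FPKM in KO 3-week, 167 FPKM in WT 3-week, 114 FPKM in KO 5-day and 161 FPKM in WT 5-day. Both KO libraries were below both WT libraries, with 21.9% of WT at 3 weeks (counting interval 19.4% to 24.7%) and 70.6% at 5 days (65.1% to 76.6%). Only 94 of the 10973 compared symbols had a lower ratio at 3 weeks (log2 -2.16), and 425 at 5 days (-0.50). No near-identical copy or antisense gene was found for it, and its gene lies at chr6:11900292-11907497 on the minus strand of GRCm38.

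AA467197 (Nmes1) encodes a paralogue of Ndufa4 that is known from human cells to take its place in complex IV, and its transcript is the host of the microRNA miR-147. It lies outside the symbol rule and was looked up after the values of Ndufa4 were seen. It stood at 318 FPKM in KO 3-week, 50.4 FPKM in WT 3-week, 45.6 FPKM in KO 5-day and 8.77 FPKM in WT 5-day, the reverse of Ndufa4 in each pair. KO was 6.32-fold WT at 3 weeks (counting interval 5.84 to 6.86) and 5.20-fold at 5 days (4.25 to 6.47). The FPKM of AA467197 was 8.68 times that of Ndufa4 in KO 3-week and 0.301 times in WT 3-week, and 0.401 times in KO 5-day and 0.0545 times in WT 5-day, so the paralogue was the more abundant of the pair in the KO 3-week library alone. The gene lies at chr2:122636986-122641191 on the plus strand of GRCm38.

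**Figure D2:**
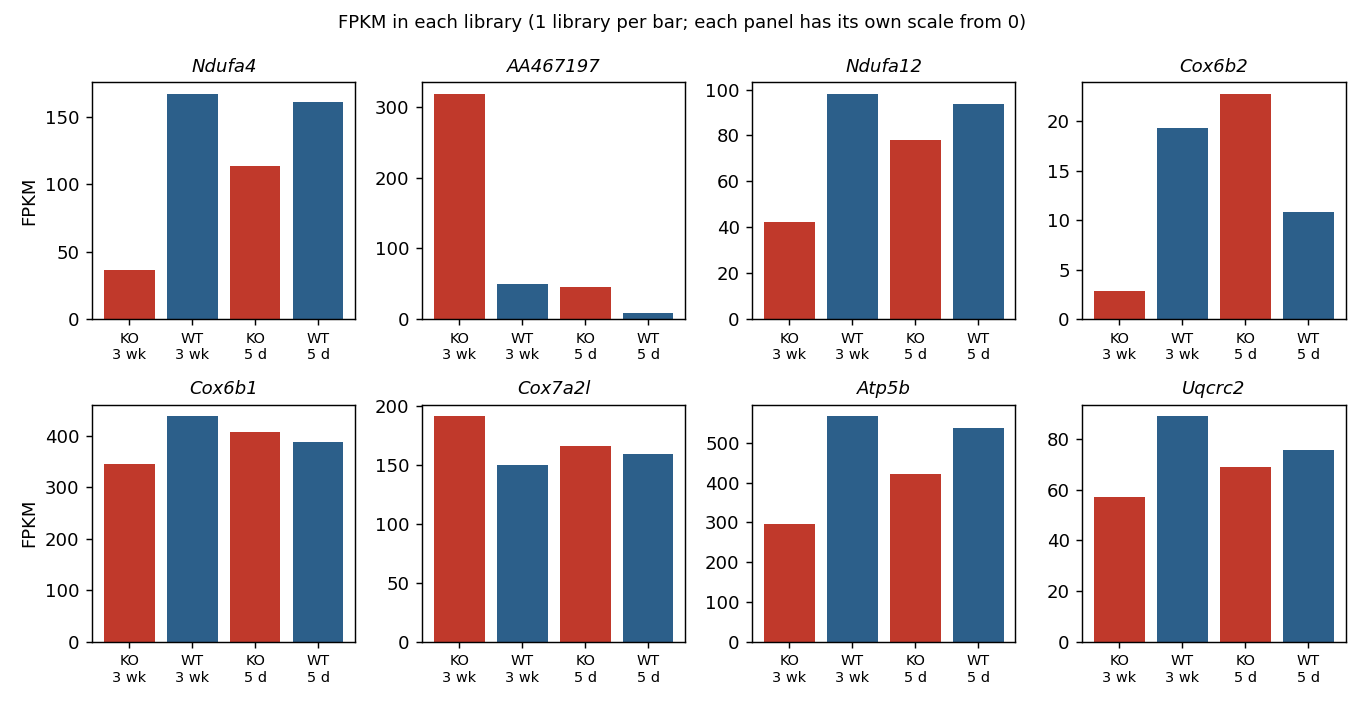
FPKM (y axis, from 0, own scale per panel) of 8 genes in the KO 3-week, WT 3-week, KO 5-day and WT 5-day libraries, 1 library per bar and so without error bars. Ndufa4 is lowest (36.7 FPKM) and AA467197 highest (318 FPKM) in KO 3-week, and Cox6b2 is low there (2.84 FPKM) while Cox6b1 stays between 345 and 438 FPKM in the 4 libraries.

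Tissue isoforms of complex IV replace ubiquitous subunits mainly in muscle, testis or lung and were scarce here. Cox6b2, known as the testis isoform of Cox6b, stood at 2.84 FPKM in KO 3-week, 19.3 FPKM in WT 3-week, 22.8 FPKM in KO 5-day and 10.9 FPKM in WT 5-day. It was lower in KO at 3 weeks, at 14.7% of WT (counting interval 8.42% to 24.0%), and higher in KO at 5 days, 2.09-fold (1.56 to 2.84). Its difference between the log2 ratios at the 2 times, -3.40, was the lowest of the 85 genes. Cox6b1, the ubiquitous isoform, stood at 345 FPKM in KO 3-week, 438 FPKM in WT 3-week, 407 FPKM in KO 5-day and 388 FPKM in WT 5-day. Cox6b2 therefore made up only 0.818% of the Cox6b FPKM in KO 3-week, 4.22% in WT 3-week, 5.31% in KO 5-day and 2.73% in WT 5-day. Cox7a1, a heart and skeletal muscle isoform, stood at 9.08 FPKM in KO 3-week, 5.18 FPKM in WT 3-week, 5.94 FPKM in KO 5-day and 3.53 FPKM in WT 5-day, but its counting intervals were wide (101% to 301% of WT at 3 weeks and 85.6% to 352% at 5 days). Its ubiquitous partner Cox7a2 stood at 86.2 FPKM in KO 3-week, 122 FPKM in WT 3-week, 107 FPKM in KO 5-day and 105 FPKM in WT 5-day (log2 ratios -0.49 and 0.04). Cox7a1 made up 9.53% of the Cox7a FPKM in KO 3-week, 4.08% in WT 3-week, 5.24% in KO 5-day and 3.27% in WT 5-day. Cox6a2, another heart and muscle isoform, had 0.811 FPKM in KO 3-week, was listed at 0 in WT 3-week, and had 1.70 FPKM in KO 5-day against 1.89 FPKM in WT 5-day, at few reads, with exons that overlap Itgad on the other strand. It was the gene just inside the minimum (mean 1.1 FPKM), followed by Atp5s (2.07 FPKM) and Ndufaf4 (2.70 FPKM). Outside it lay Cox4i2 (mean 0.0906 FPKM) and Ndufa4l2 (0.0152 FPKM), and Cox7b2, Cox8b and Cox8c were listed at 0 in every library.

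Cox7a2l, a factor that joins complexes III and IV into supercomplexes, was the most abundant of the 6 genes whose counting interval lay above equality at 3 weeks. It stood at 191 FPKM in KO 3-week, 149.5 FPKM in WT 3-week, 166 FPKM in KO 5-day and 159 FPKM in WT 5-day (128% of WT at 3 weeks, counting interval 122% to 134%). At 5 days it lay at 104%, with an interval that held equality. C57BL/6 mice are known to carry a shortened form of its protein, and a near-identical copy, Gm6969, could share its reads.

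Complex V, the ATP synthase, summed to 2651 FPKM in KO 3-week and 3670 FPKM in WT 3-week (72.2% of WT), and to 3126 FPKM in KO 5-day and 3474 FPKM in WT 5-day (90.0%). Its summed FPKM was the lowest of the 5 complexes relative to WT, whereas by median log2 ratio complex III was lower at both times (-0.48 against -0.41 at 3 weeks and -0.20 against -0.13 at 5 days). Atp5b, the catalytic beta subunit, stood at 295 FPKM in KO 3-week, 567 FPKM in WT 3-week, 422 FPKM in KO 5-day and 537 FPKM in WT 5-day. KO 3-week held 52.0% of WT (counting interval 50.8% to 53.2%), and KO 5-day 78.6%. Atp5a1, the alpha subunit that forms the catalytic head with beta, stood at 209.9 FPKM in KO 3-week, 345 FPKM in WT 3-week, 274 FPKM in KO 5-day and 327 FPKM in WT 5-day. Atp5c1, the gamma subunit of the rotating shaft, was nearer to WT, at 116 FPKM in KO 3-week, 152 FPKM in WT 3-week, 133 FPKM in KO 5-day and 142 FPKM in WT 5-day. The remaining head and shaft genes, Atp5d (delta) and Atp5e (epsilon), had log2 ratios of 0.05 and -0.06 at 3 weeks and 0.01 each at 5 days. Within this part of the enzyme the log2 ratio at 3 weeks therefore ran from -0.94 (beta) to 0.05 (delta).

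The c subunit that makes up the rotor ring of ATP synthase is encoded by Atp5g1, Atp5g2 and Atp5g3, whose mature proteins are the same. Their log2 ratios at 3 weeks were -0.74, -0.33 and -0.89, and at 5 days -0.45, -0.15 and -0.20. Atp5g1 stood at 35.6 FPKM in KO 3-week, 60.3 FPKM in WT 3-week, 46.4 FPKM in KO 5-day and 63.6 FPKM in WT 5-day. Atp5g2 stood at 179 FPKM in KO 3-week, 226 FPKM in WT 3-week, 229 FPKM in KO 5-day and 254 FPKM in WT 5-day. Atp5g3 stood at 177 FPKM in KO 3-week, 329 FPKM in WT 3-week, 259 FPKM in KO 5-day and 297 FPKM in WT 5-day. For each of them KO 3-week was the lowest library. The share of Atp5g3 in the c subunit FPKM was 45.1% in KO 3-week, 53.4% in WT 3-week, 48.5% in KO 5-day and 48.3% in WT 5-day, and Atp5g2 held 45.8% in KO 3-week and 36.8% in WT 3-week. Near-identical copies exist of Atp5g1 and Atp5g2. Of the 8 stalk and membrane genes 7 lay below 0 at 3 weeks (median -0.33), from Atp5h at -0.71 to Atp5s at 0.07, and 6 did at 5 days (median -0.11). The shares below 0 over all compared symbols were 55.8% and 53.6%, and over the more abundant ones 62.6% and 59.1%. Atp5s stood at only 2.27 FPKM in KO 3-week and 2.11 FPKM in WT 3-week. Cox4nb, the gene that is no subunit, had log2 ratios of -0.60 and -0.25.

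The genotype ratios at 3 weeks and 5 days share no library, so the same direction at both times is not set by a shared control. Whether the libraries of a genotype came from the same mice or starting cultures at both times is not given in the sample titles. The ratios at both times may therefore not be independent. Lower in KO at both times were 63 of 85 genes (74.1%), against 42.8% of all compared symbols, and 9 were higher at both (10.6%, against 33.1%). In 12 genes KO was lower at 3 weeks and higher at 5 days (14.1%, against 12.9%), and in 1, Cox6a2, it was the reverse (1.18%, against 10.7%). The log2 ratio was lower at 3 weeks than at 5 days in 74 of 85 (87.1%), against 57.4% of all compared symbols, with a median difference of -0.24 against -0.08. Of the symbols with a mean of at least 20 FPKM, 2471 of 3914 were lower at 3 weeks, with a median difference of -0.14. Across the 85 genes the ratios had a Pearson r of 0.27 and a Spearman rho of 0.69, and without Cox6b2 both were 0.75 (84 genes), as a description over genes that share libraries and are not replicates.

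**Figure D3:**
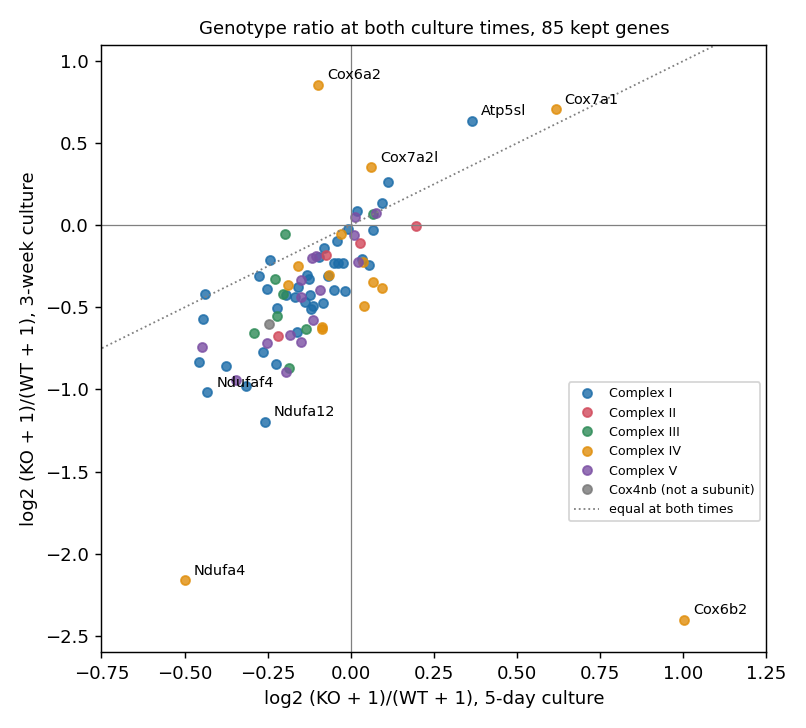
Log2((KO + 1)/(WT + 1)) of FPKM in the 5-day culture (x axis) and the 3-week culture (y axis) for the 85 kept genes, coloured by complex, 1 library per group; the dotted line marks equal ratios. Of the 85 points 63 lie below 0 on both axes, Ndufa4 stands at -0.50 and -2.16, and Cox6b2 at 1.00 and -2.40.

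Within a genotype, the longer culture was set against the shorter one. In KO cells 64 of 85 genes were lower in the 3-week than in the 5-day library (75.3%), with a median of -0.21. The same held for 56.8% of all compared symbols (median -0.06) and 63.3% of those with a mean of at least 20 FPKM (median -0.13). In WT cells 63 were higher (74.1%), with a median of 0.08, against 51.9% of all compared symbols and 51.1% of the more abundant ones (median 0.01 in each). At least 1.5-fold lower in the KO 3-week library were 3 genes (3.53%, against 12.8%), Cox6b2, Ndufa4 and Ndufa12, and 0 were at least 1.5-fold higher (against 9.5%). At least 1.5-fold higher in the WT 3-week library were 2 (2.35%, against 7.34%), Cox6b2 and Ndufaf4, and 1 was lower (1.18%, against 6.67%), Cox6a2. These cultures differ in restimulation, cytokines and antibody as well as in time, and each of these comparisons shares its libraries with the genotype ratios above.

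Genes that work with the respiratory chain were counted as lists, to be read against the shares of all compared symbols at 3 weeks: 55.8% below 0, 20.8% at least 1.5-fold lower (26% of the more abundant ones), 8.19% at least 2-fold lower and 15.5% at least 1.5-fold higher. Of 8 compared genes for cytochrome c and its partners, 8 lay below 0 and 5 (62.5%) were at least 1.5-fold lower at 3 weeks (median -0.63; -0.18 at 5 days). Cycs, cytochrome c itself, stood at 11.9 FPKM in KO 3-week, 24.6 FPKM in WT 3-week, 15.0 FPKM in KO 5-day and 20.3 FPKM in WT 5-day, and Cyc1 at 57.6 FPKM in KO 3-week, 92.5 FPKM in WT 3-week, 73.7 FPKM in KO 5-day and 95.9 FPKM in WT 5-day. Both KO libraries were below both WT libraries for each gene. Among 24 other assembly factors, 6 (25%, near the background) passed 1.5-fold downwards and 0 upwards at 3 weeks (median -0.34; -0.06 at 5 days), among them Sco2, a copper chaperone of complex IV, at 3.97 FPKM in KO 3-week and 7.73 FPKM in WT 3-week. Among 18 TCA cycle genes, 7 (38.9%) passed 1.5-fold downwards and 0 upwards (median -0.50; -0.21 at 5 days). Idh2, the mitochondrial isocitrate dehydrogenase that makes NADPH, stood at 4.25 FPKM in KO 3-week, 22.4 FPKM in WT 3-week, 19.0 FPKM in KO 5-day and 28.9 FPKM in WT 5-day, with KO 3-week far below the other 3 libraries.

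Lists for making mitochondria stood further from WT than the respiratory chain itself at 3 weeks. Of 23 protein import and chaperone genes 15 (65.2%, against 20.8%) were at least 1.5-fold lower and 9 (39.1%, against 8.19%) at least 2-fold lower, with 0 higher (median -0.88; -0.31 at 5 days). Hspd1, the mitochondrial chaperonin, stood at 37.5 FPKM in KO 3-week, 113 FPKM in WT 3-week, 51.3 FPKM in KO 5-day and 81.5 FPKM in WT 5-day. Timm8a1, an intermembrane space import chaperone, stood at 7.73 FPKM in KO 3-week, 27.7 FPKM in WT 3-week, 9.72 FPKM in KO 5-day and 17.3 FPKM in WT 5-day. Of 76 mitochondrial ribosomal protein genes 75 lay below 0 (98.7%, against 55.8%) and 39 were at least 1.5-fold lower (51.3%, against 20.8%; median -0.59; -0.19 at 5 days), whereas of the 81 cytoplasmic ribosomal protein genes 5 were at least 1.5-fold lower (6.17%). They had a median of -0.06 at 3 weeks, which was 0.05 with upper-quartile scaling, and -0.08 at 5 days. A list outside mitochondria, 41 proteasome genes, had a median of -0.45 at 3 weeks and -0.21 at 5 days. At 3 weeks 40 of them lay below 0 (97.6%, against 55.8%). At least 1.5-fold lower were 13 (31.7%, against 20.8% of all compared symbols and 26% of the more abundant ones). This list thus also stood further from WT than the respiratory chain (medians -0.38 and -0.12).

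Genes of mitochondrial DNA upkeep and of regulators followed. Of 11 genes for mitochondrial DNA maintenance and transcription 4 were at least 1.5-fold lower (36.4%, against 20.8%; median -0.48; -0.16 at 5 days), and Tfam, which packages mitochondrial DNA and starts its transcription, stood at 7.65 FPKM in KO 3-week, 11.8 FPKM in WT 3-week, 12.1 FPKM in KO 5-day and 13.6 FPKM in WT 5-day. Of 10 compared biogenesis regulators 3 were at least 1.5-fold lower at 3 weeks (median -0.33, and -0.13 at 5 days). This share, 30% of only 10 genes, stands against 20.8% of all compared symbols and 26% of the abundant ones. Myc, a transcription factor of growing cells, stood at 14.7 FPKM in KO 3-week, 75.8 FPKM in WT 3-week, 20.3 FPKM in KO 5-day and 38.4 FPKM in WT 5-day. Pprc1, a PGC-1 related coactivator, stood at 6.08 FPKM in KO 3-week, 22.3 FPKM in WT 3-week, 8.91 FPKM in KO 5-day and 12.5 FPKM in WT 5-day. For both, each KO library was below both WT libraries. Above 0 at 3 weeks were 3 of the 10 regulators, among them Esrra and Tfe3, which were higher in KO at both times. Esrra stood at 18.0 FPKM in KO 3-week, 14.3 FPKM in WT 3-week, 13.6 FPKM in KO 5-day and 9.57 FPKM in WT 5-day. Nrf1, the factor whose letters were searched above, stood at 12.8 FPKM in KO 3-week, 20.05 FPKM in WT 3-week, 16.3 FPKM in KO 5-day and 19.7 FPKM in WT 5-day, and Gabpa, the ETS subunit of GABP, lay between 15.2 and 16.6 FPKM in the 4 libraries. Ppargc1a, the gene of PGC-1alpha, stood at 0.0147 FPKM in KO 3-week and 0.00701 FPKM in KO 5-day and was listed at 0 in both WT libraries. Of 8 mitochondrial antioxidant genes 1 (12.5%) was lower and 1 (12.5%) higher by 1.5-fold at 3 weeks, below the background in either direction. Prdx5, a peroxiredoxin, was the higher one, at 199 FPKM in KO 3-week, 100.1 FPKM in WT 3-week, 165 FPKM in KO 5-day and 113 FPKM in WT 5-day, and Prdx3, its relative in the mitochondrial matrix, the lower one, at 24.6 FPKM in KO 3-week, 50.2 FPKM in WT 3-week, 25.8 FPKM in KO 5-day and 33.0 FPKM in WT 5-day.

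**Figure D4:**
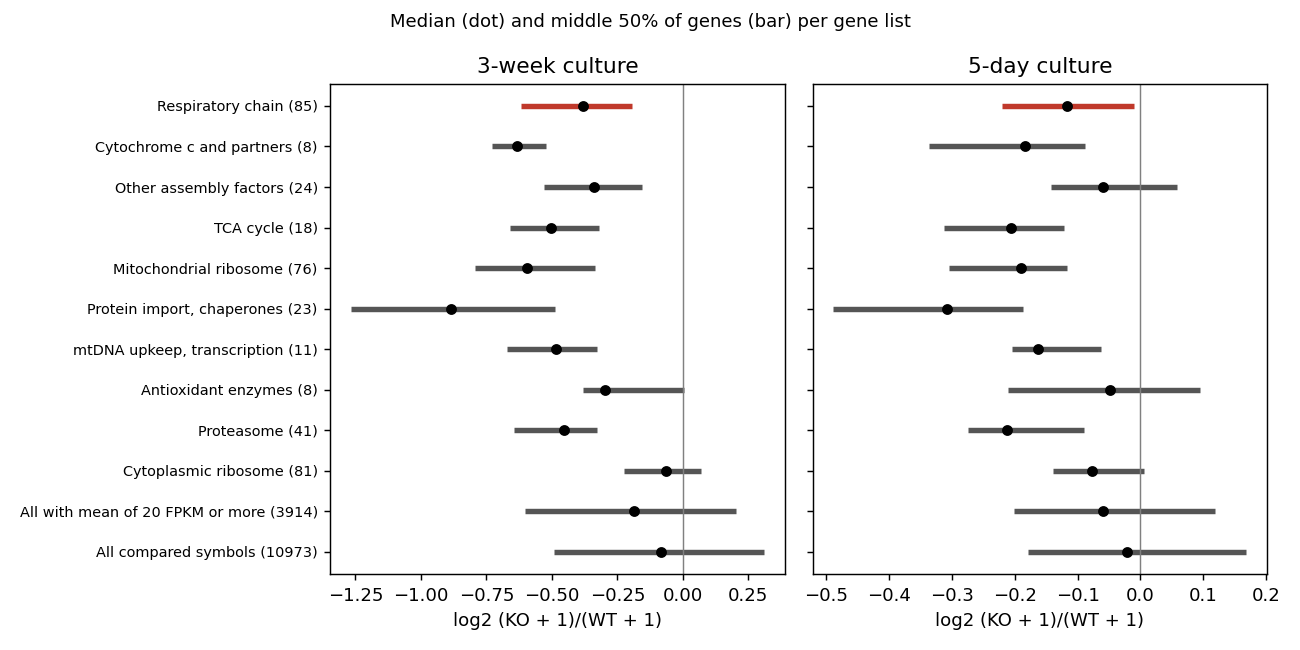
Median (dot) and middle 50% of genes (bar) of log2((KO + 1)/(WT + 1)) of FPKM (x axis) for each gene list (rows, number of compared genes in brackets), 3-week culture left and 5-day culture right, on different x scales; 1 library per group. At 3 weeks the respiratory chain has a median of -0.38, protein import and chaperones -0.88, cytoplasmic ribosomal proteins -0.06 and all compared symbols -0.08.

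Transcript length and level, which can bear on FPKM, were set beside the ratios. Of the 85 genes 34 have a reference transcript under 700 bases (from 315 to 4942, median 838), and across genes the log2 ratio at 3 weeks had a Spearman rho of -0.06 with length and 0.06 with mean FPKM. A near-identical copy was found for 22 genes and an antisense exon overlap for 29, with 43 genes free of both, and single values of genes with a copy or an overlap are uncertain.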

How the data were processed

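RNA from 4 Th2 libraries, 1 per group, was, per the labels' protocols, extracted with TRIzol and made into TruSeq Stranded mRNA libraries. The authors deposited FPKM per gene symbol, and Bowtie 0.12.8, TopHat 1.3.2, Cufflinks 2.0.2 and mm10 are named, per the submitters' processing notes. The unit FPKM was read from Cufflinks and the values, while the sources used here do not give the annotation, read layout, strand use or filters. Each deposited file held 23746 lines, lines of the same symbol were summed (240 symbols, of which 0 were respiratory chain genes) and 1 symbol without a number was left out. Ratios were log2 of FPKM plus 1, which understates differences of low genes, and folds were counted at 1.5 and 2.

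Depth is not stated. It was inferred from whole-read steps of low values, with GENCODE M21 lengths (GRCm38) less 200 bases: 59.7% to 62.2% of such values lay within 0.05 of a whole read, against 10% if evenly spread. Counting intervals are exact Clopper-Pearson 95% intervals on the implied reads. Near-identical copies were sought with BLAST 2.17.0 (at least 95% identity over at least 200 bases), from a single transcript per gene. Only matches annotated as pseudogenes, or on a short list of other genes picked by hand, were counted as copies. Python 3.11.15, pandas 2.3.3, scipy 1.17.1 and matplotlib 3.10.9 were used. The counting of folds was tested on data simulated with counting error only, and with changes beyond 2-fold or none. That test does not bear on genes changed by about 1.5-fold or on spread between replicates. Groups came from sample titles. The genes, lists and rules were chosen with earlier results of these data known. Named genes were core subunits, isoform pairs, the 6 highest and 6 lowest ratios per genotype comparison, the 4 highest and 4 lowest differences between them, genes past 2-fold, those beside the mean minimum, and list genes past 1.5-fold. A gene named by these rules is not reported here. Alternatives were other pseudocounts, filters and scalings and, added after seeing the data, leaving out genes with copies or antisense overlaps.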

Additional observations from a re-analysis of the deposited data

Results flagged for a closer look

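Cox6b2, the testis isoform of a complex IV subunit, stood on opposite sides of WT at the 2 culture times, with a log2 ratio of KO to WT of -2.40 at 3 weeks and 1.00 at 5 days, each with a counting interval that left out equality. Cox5b, a ubiquitous complex IV subunit, did the same on a small scale, with log2 ratios of -0.38 at 3 weeks and 0.09 at 5 days. With 1 library per group the difference between the times was not tested for either gene. A near-identical copy, Gm11273, could share the reads of Cox5b.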

How the results depend on the processing

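The median log2 ratio of the 85 genes at each time and the median difference between the times stayed below 0 under every alternative run. The counts past 1.5-fold changed as given below. The median at 3 weeks was -0.38 as reported, -0.34 with a pseudocount of 5, -0.35 with no filter on low values, -0.33 with median-of-ratios scaling, -0.27 with upper-quartile scaling, -0.40 without genes that have a near-identical copy and -0.37 without genes whose exons overlap an antisense gene. The median at 5 days was -0.12 as reported and -0.10 with upper-quartile scaling, and the median difference was -0.24 as reported, -0.18 with median-of-ratios and -0.15 with upper-quartile scaling. Genes at least 1.5-fold lower at 3 weeks numbered 23 of 85 as reported (27.1%, against 20.8% of all compared symbols). With upper-quartile scaling they numbered 15 of 85, close to the share of all compared symbols then (16.6%). With median-of-ratios scaling they numbered 19 of 85, against 18.6% of all compared symbols. Without antisense overlaps they numbered 15 of 56, to be read against the same 20.8%. Genes at least 1.5-fold higher at 3 weeks numbered 3 as reported (3.53%, against 15.5% of all compared symbols). They numbered 0 with a pseudocount of 5, for which the share of all symbols was not counted. At 5 days a pseudocount of 0.1 gave 1 lower gene in place of 0, and a pseudocount of 5 gave 1 higher gene in place of 2. Below 0 at 3 weeks lay 75 of 85 as reported (88.2%, against 55.8% of all compared symbols). With median-of-ratios scaling 70 did (82.4%, against 52.3%), and with upper-quartile scaling 67 (78.8%, against 48.8%). These scalings moved the median of all compared symbols to -0.03 and 0.02. The log2 ratio of Cox6b2 at 3 weeks was -2.72 with a pseudocount of 0.1 and -1.63 with 5. The cause of these shifts was not tested beyond the change each alternative makes.

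No paired analysis was possible because each group held 1 library and the titles carry no replicate numbers. Leaving out a library was likewise not possible. Few implied reads gave wide counting intervals for Cox7a1, a scarce isoform, and for Ndufc1, a short transcript.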
